A study of Mus musculus with 23 samples.

Results

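The 38 genes described here mark macrophages of the mouse liver: the Kupffer cells that live in its sinusoids and the monocyte-derived macrophages that are recruited into it. They were taken from a fixed list by gene symbol, and each gene was read from the probe set assigned to it alone with the highest mean over all 23 arrays. All 38 had such a probe set, of 18193 genes in all. A total of 37 passed the filter on low signal and were tested among 13827 genes, and Itgam, the alpha chain of the integrin CR3, did not pass. By role they are resident and recruited macrophage markers, complement C1q, general macrophage genes, and Fc receptors and signalling adaptors. The rest are integrins and an oxidase, chemokines with a receptor, and genes of all leukocytes.

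The study measured liver mRNA of male C3H mice on Affymetrix 3' expression arrays. The KO mice lack beta-catenin (Ctnnb1) in hepatocytes: Cre recombinase under the albumin promoter cuts at loxP sites in the introns around exons 3 and 6, and the line was backcrossed into C3H/N. Because the albumin promoter is active in hepatocytes, the gene is not deleted in macrophages by design. The 4 groups were KO mice given 0.05% phenobarbital (PB) in the diet for 12 weeks (KO PB, 7 arrays), KO mice on a diet without PB for the same time (KO control, 7 arrays), WT mice given PB (WT PB, 4 arrays) and WT mice without PB (WT control, 5 arrays). The labels of the control samples also name water as vehicle. Nothing in the labels says whether the arrays of a group are separate animals, so each p-value reflects how these arrays scatter, and that scatter may be partly technical.

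The knocked-out gene did not separate the groups on these arrays. Ctnnb1 had a log2 signal of 12.19 ± 0.09 in KO PB livers, 12.25 ± 0.11 in KO control livers, 12.07 ± 0.03 in WT PB livers and 12.20 ± 0.02 in WT control livers (SD, n = 7, 7, 4 and 5). KO minus WT was 0.05 (SE 0.05, adjusted p = 0.539) without PB and 0.12 (SE 0.06, adjusted p = 0.162) under PB, by limma with Benjamini-Hochberg adjustment over 13827 genes. Where the probes of this set lie relative to the deleted exons is not given in the sources used here, so this reading does not check the genotype labels. Array medians lay between 5.09 and 5.14 on the log2 scale. Within groups, the pair of arrays least alike correlated at 0.968 in KO PB livers, 0.945 in KO control livers, 0.995 in WT PB livers and 0.989 in WT control livers.

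Kupffer cells are seeded before birth and renew themselves in the liver, where they clear particles, old blood cells and bacteria from portal blood through scavenger and complement receptors. When they are lost or the liver is injured, Ccr2-bearing monocytes enter and can turn into macrophages that in time take on Kupffer cell genes. Macrophages of both origins share a common set of genes, among them the receptor for the growth factor Csf1, the complement component C1q, Fc receptors and lysosomal proteases, and many of these genes carry binding sites of the myeloid factor PU.1 near their start.

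The promoters of 6 of these genes are shown as a description: the 5 resident markers and Ccr2, the recruited marker with the largest difference. No result on expression depends on these windows, and a link between their letters and the calls was not tested. Each window holds 300 bases, 250 before and 50 after the transcript start that the RefSeq table uses, read 5′ to 3′ on the gene's strand from RefSeq (GRCm38.p6). Capitals mark GAGGAA, the core letters of a PU.1 site, or the same letters on the opposite strand (TTCCTC). The windows lie at chr6:83656067-83656366, minus strand (Clec4f), chrX:96293389-96293688, minus strand (Vsig4), chr3:87357631-87357930, plus strand (Cd5l), chr1:120504975-120505274, minus strand (Marco), chr11:46810549-46810848, plus strand (Timd4) and chr9:124101933-124102232, plus strand (Ccr2). The start used lies 13 bases inside the annotated gene for Timd4 and 265 bases inside it for Ccr2, so that the whole Ccr2 window is within the gene.
Clec4f: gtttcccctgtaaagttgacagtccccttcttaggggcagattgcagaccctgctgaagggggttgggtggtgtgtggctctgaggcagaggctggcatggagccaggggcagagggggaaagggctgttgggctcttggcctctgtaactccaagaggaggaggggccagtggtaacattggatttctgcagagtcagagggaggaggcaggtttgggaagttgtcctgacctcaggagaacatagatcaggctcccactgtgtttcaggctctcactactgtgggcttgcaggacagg
Vsig4: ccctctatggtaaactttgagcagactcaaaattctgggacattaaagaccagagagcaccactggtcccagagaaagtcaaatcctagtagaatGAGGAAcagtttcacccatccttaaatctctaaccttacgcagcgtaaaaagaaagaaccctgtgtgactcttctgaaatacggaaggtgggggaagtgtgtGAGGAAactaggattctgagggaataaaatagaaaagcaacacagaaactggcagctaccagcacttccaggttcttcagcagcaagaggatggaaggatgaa
Cd5l: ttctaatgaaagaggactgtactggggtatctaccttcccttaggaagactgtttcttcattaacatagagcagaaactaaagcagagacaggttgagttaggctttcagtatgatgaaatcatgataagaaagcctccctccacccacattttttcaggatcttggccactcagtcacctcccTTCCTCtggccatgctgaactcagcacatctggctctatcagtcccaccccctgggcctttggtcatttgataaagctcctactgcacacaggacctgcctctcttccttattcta
Marco: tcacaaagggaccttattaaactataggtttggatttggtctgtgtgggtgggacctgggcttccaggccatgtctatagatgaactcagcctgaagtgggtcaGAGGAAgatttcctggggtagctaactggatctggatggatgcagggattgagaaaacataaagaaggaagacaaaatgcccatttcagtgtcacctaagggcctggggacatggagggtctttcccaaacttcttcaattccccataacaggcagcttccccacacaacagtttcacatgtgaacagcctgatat
Timd4: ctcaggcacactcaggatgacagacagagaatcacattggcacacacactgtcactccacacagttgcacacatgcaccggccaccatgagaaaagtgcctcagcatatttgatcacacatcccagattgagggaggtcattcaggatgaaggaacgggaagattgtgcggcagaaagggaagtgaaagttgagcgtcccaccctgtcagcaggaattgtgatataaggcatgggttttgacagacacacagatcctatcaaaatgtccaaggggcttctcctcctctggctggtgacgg
Ccr2: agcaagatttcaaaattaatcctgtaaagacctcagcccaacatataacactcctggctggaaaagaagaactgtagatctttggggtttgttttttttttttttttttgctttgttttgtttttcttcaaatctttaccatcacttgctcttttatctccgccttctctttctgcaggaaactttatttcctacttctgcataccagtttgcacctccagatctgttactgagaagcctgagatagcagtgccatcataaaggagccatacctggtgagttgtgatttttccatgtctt
The letters stand in the windows of Vsig4, Cd5l and Marco, on either strand, and not in those of Clec4f, Timd4 and Ccr2, and none of the other motifs searched lies in these 6 windows. A window was at hand for 29 of the 38 genes, and 16 of these (55.2%) held GAGGAA on either strand, against 31.3% of the windows of 27025 genes. Besides the 3 named above, the 16 are Trem2, Itgam, Cd68, Aif1, Ctss, C1qb, C1qc, Fcgr1, Fcgr3, Cybb, Ptprc, Laptm5 and Cd53. The AP-1 letters TGACTCA, which read TGAGTCA on the other strand, were found in 3 of the 29 (10.3%; Itgax, Gpnmb and Cd68) against 5.95% of all windows. The E-box CACGTG was found in 0 of the 29 and in 8.09% of all, the STAT letters TTCCCGGAA in 0 and in 0.411% of all, and the NF-kB letters in 0 and in 0.174% of all. No window was at hand for Cd14, C1qa, Adgre1, Tyrobp, Msr1, Ccl2, Csf1r, Itgb2 and Cd52. A match of letters is a description of the window and shows no binding.

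Macrophage genes were higher in KO livers than in WT livers, with and without PB. Between the control groups, 29 of the 37 tested members were called higher in KO and 0 lower (adjusted p under 0.05). All 37 differences were positive, with a median of 1.77 on the log2 scale, against a median of -0.0047 over all genes tested. In that comparison 25.0% of all genes were called, and 14.8% were called higher. Under PB, 27 of the 37 were called higher in KO than in WT and 0 lower, with a median difference of 1.93 against 0.0024 over all genes. There 20.0% of all genes were called and 11.9% were called higher. The 25 members called in both comparisons make up 25 of 29 and 25 of 27 of the calls. Marco, Ccr2, Cd14 and Fcgr1 were called without PB and not under PB, Clec4f and Cd163 under PB and not without it, and Itgax, Gpnmb, Trem2, Cybb, Ccl2 and Cx3cr1 in neither. These splits do not show that the comparisons differ: the interaction test called 0 members, and the calls move with the fit. With array weights, 21 members were called without PB and 33 under PB, and with only the compared groups 24 and 32. With array weights Marco, Ccr2, Cd14 and Fcgr1 were all called under PB and not without it.

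Arrays differed more from each other in the KO groups than in the WT groups. The range over the arrays of a group, taken as the median over the 38 genes, was 2.07 on the log2 scale in KO PB livers and 2.71 in KO control livers, against 0.35 in WT PB livers and 0.74 in WT control livers. For 19 members every KO control array was above every WT control array, and 6.98% of all genes tested were so separated. Under PB this held for 31 members, beside 11.2% of all genes. KO control replicates 2, 6 and 7, which earlier results of these data had put apart, were the 3 highest arrays of their group for 28 of the 38 members, so leaving them out lowers the KO control level by construction. Without them 2 members (Cd53 and Cd68) were called between the control groups, with a median difference of 0.92. The same fit called 33 members between KO PB and WT PB. In liver tissue a higher signal from more macrophages and from more RNA per macrophage cannot be told apart.

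**Figure D1:**
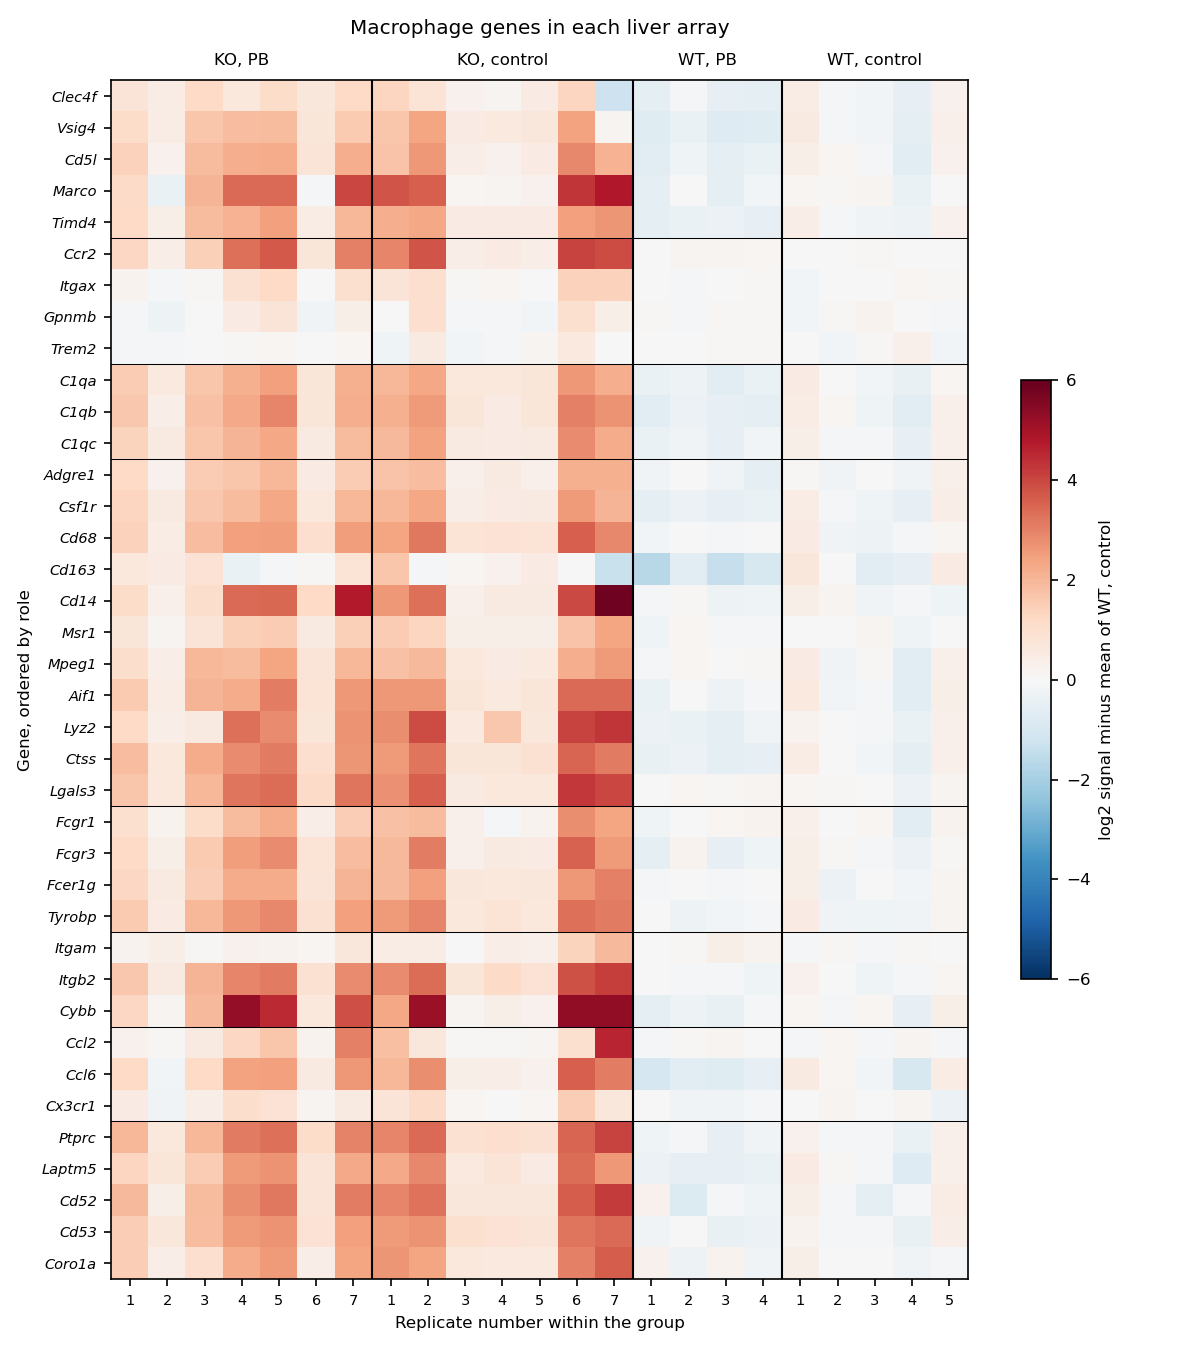
Log2 signal of each of the 38 genes (rows, ordered by role) in each of the 23 arrays (columns, by group), as the difference from the mean of the WT control arrays. KO control replicates 1, 2, 6 and 7 and KO PB replicates 4, 5 and 7 are high in most rows, while KO control replicates 3, 4 and 5 and KO PB replicates 2 and 6 lie closer to the WT arrays.

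Of the 5 resident markers, 4 were called higher in KO than in WT in each comparison, and the exception differed. Clec4f, a C-type lectin that in the mouse is largely restricted to Kupffer cells, had log2 signals between 8.35 and 9.11 (median 8.67) in KO PB livers and of 7.35, 7.84, 7.41 and 7.37 in WT PB livers. All 7 KO PB arrays were above all 4 WT PB arrays, and the difference was 1.26 (SE 0.32, 2.4-fold, adjusted p = 0.00881). In KO control livers Clec4f lay between 6.67 and 9.18 (median 8.38), against 8.36, 7.84, 7.73, 7.42 and 8.14 in WT control livers. The groups overlapped, and the difference was 0.44 (SE 0.30, adjusted p = 0.295). KO control replicate 7, at 6.67, was below every WT array. Without that array the difference was 0.72 and the adjusted p was 0.0208.

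Vsig4, the complement receptor CRIg with which Kupffer cells bind coated bacteria, was between 8.97 and 10.44 (median 10.09) in KO PB livers and 7.83, 8.12, 7.77 and 7.80 in WT PB livers. The groups did not overlap, and the difference was 1.98 (SE 0.38, 3.94-fold, adjusted p = 0.00104). Without PB it was between 8.68 and 10.95 (median 9.20) in KO livers and 9.06, 8.44, 8.37, 7.97 and 8.84 in WT livers. These groups overlapped through KO replicate 7 (8.68) and KO replicate 3 (9.05), which lay below the highest WT array, and the difference was 1.19 (SE 0.36, 2.28-fold, adjusted p = 0.0197). Left without WT control replicate 4, the lowest of its group, the adjusted p was 0.0575.

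Cd5l, a secreted scavenger protein also called AIM, was between 9.57 and 11.53 (median 11.21) in KO PB livers and 8.63, 9.02, 8.71 and 8.90 in WT PB livers. The difference was 2.03 (SE 0.46, 4.09-fold, adjusted p = 0.00368), with every KO array above every WT array. In KO control livers it was between 9.57 and 12.18 (median 10.996), against 9.65, 9.38, 9.19, 8.66 and 9.55 in WT control livers. KO replicate 4, at 9.57, lay below the highest WT array (9.65), and the difference was 1.50 (SE 0.43, 2.83-fold, adjusted p = 0.0144). With array weights the adjusted p of this comparison was 0.0871.

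Marco, a scavenger receptor for bacteria and particles, spread most among the resident markers. It was between 5.86 and 10.55 (median 9.36) in KO control livers and 5.84, 5.83, 5.93, 5.37 and 5.77 in WT control livers. KO replicates 1, 2, 6 and 7 lay between 9.36 and 10.55, and replicates 3, 4 and 5 between 5.86 and 6.00, next to the WT arrays. The difference was 2.43 (SE 0.86, 5.38-fold, adjusted p = 0.0426). This call was lost when any one of KO control replicates 1, 2, 6 and 7, any one of the 5 WT control arrays, or WT PB replicate 1 or 4 was left out, with a highest adjusted p of 0.0894. Under PB Marco was between 5.36 and 9.74 (median 7.79) in KO livers, where replicates 2 (5.36) and 6 (5.67) lay within the WT range, and 5.23, 5.72, 5.20 and 5.59 in WT livers. That difference was 2.25 (SE 0.92, adjusted p = 0.0876), and without KO PB replicate 2 the adjusted p was 0.0414. With array weights the adjusted p was 0.0296 under PB and 0.219 without PB, and with only the compared groups 0.0561 and 0.0758.

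Timd4, a receptor for phosphatidylserine on dying cells that marks long-lived resident macrophages, separated the genotypes in both comparisons. It was between 5.68 and 7.80 (median 7.23) in KO PB livers and 4.82, 4.93, 4.99 and 4.83 in WT PB livers, a difference of 1.93 (SE 0.44, 3.82-fold, adjusted p = 0.00413). Without PB it was between 5.82 and 8.01 (median 7.52) in KO livers and 5.72, 5.22, 5.11, 5.05 and 5.59 in WT livers, a difference of 1.59 (SE 0.41, 3.01-fold, adjusted p = 0.00868). Every KO array was above every WT array of the same diet. KO control replicates 3, 4 and 5, between 5.82 and 5.85, were above the highest WT control array (5.72) by a small margin.

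Among the 4 recruited markers, Ccr2 was called in 1 comparison and the others in none. Ccr2, the chemokine receptor with which monocytes leave the blood, was between 4.90 and 8.55 (median 7.43) in KO control livers and 4.47, 4.47, 4.54, 4.51 and 4.47 in WT control livers. All 7 KO arrays were above all 5 WT arrays, which lay within 0.07 of each other and below the filter level, and the difference was 2.28 (SE 0.68, adjusted p = 0.0186). Against the filter level itself the KO control mean was 2.21 higher and the KO PB mean 1.88 higher. Of the WT arrays 3 were above that level, so Ccr2 passed the filter of 4 arrays through the KO arrays. Under PB it was between 4.89 and 8.15 (median 5.91) in KO livers and 4.51, 4.64, 4.64 and 4.62 in WT livers. Again the groups did not overlap, but KO replicates 2 (4.89) and 6 (5.23) were close to the WT arrays, and the difference was 1.85 (SE 0.73, adjusted p = 0.0752). Without KO PB replicate 2 the adjusted p was 0.0431. With array weights it was 0.0213 under PB and 0.0927 without PB, and with only the compared groups 0.0386 and 0.0498. Ccr2 has 3 tested probe sets, whose differences without PB ran between -0.03 and 2.28, and 2 of them were called.

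Itgax, the integrin chain CD11c of dendritic cells and some macrophages, was between 4.73 and 6.12 (median 5.51) in KO control livers and 4.56, 4.76, 4.70, 4.84 and 4.82 in WT control livers. The groups overlapped through KO replicates 3 and 5, and the difference was 0.68 (SE 0.26, adjusted p = 0.055). Left without KO control replicate 3, 4 or 5, or KO PB replicate 5, the adjusted p was below 0.05, at 0.0235 at the lowest. Under PB the difference was 0.47 (SE 0.27, adjusted p = 0.232). Gpnmb and Trem2, a glycoprotein and a lipid-sensing receptor of macrophages that handle lipid in injured liver, stayed low. Gpnmb was 4.36 to 5.55 in KO control livers and 4.35 to 4.75 in WT control livers, and was above the filter level in 10 of 23 arrays, 3 of them WT. Trem2 was 5.12 to 5.98 in KO control livers and 5.20 to 5.66 in WT control livers, and was above the filter level in all 23 arrays. KO control replicates 2 and 6 were the highest of their group for both genes (Gpnmb 5.55 and 5.47, Trem2 5.91 and 5.98). KO minus WT without PB was 0.28 (SE 0.21, adjusted p = 0.328) for Gpnmb and 0.11 (SE 0.12, adjusted p = 0.528) for Trem2, and under PB 0.13 (SE 0.22, adjusted p = 0.72) and -0.01 (SE 0.13, adjusted p = 0.965).

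**Figure D2:**
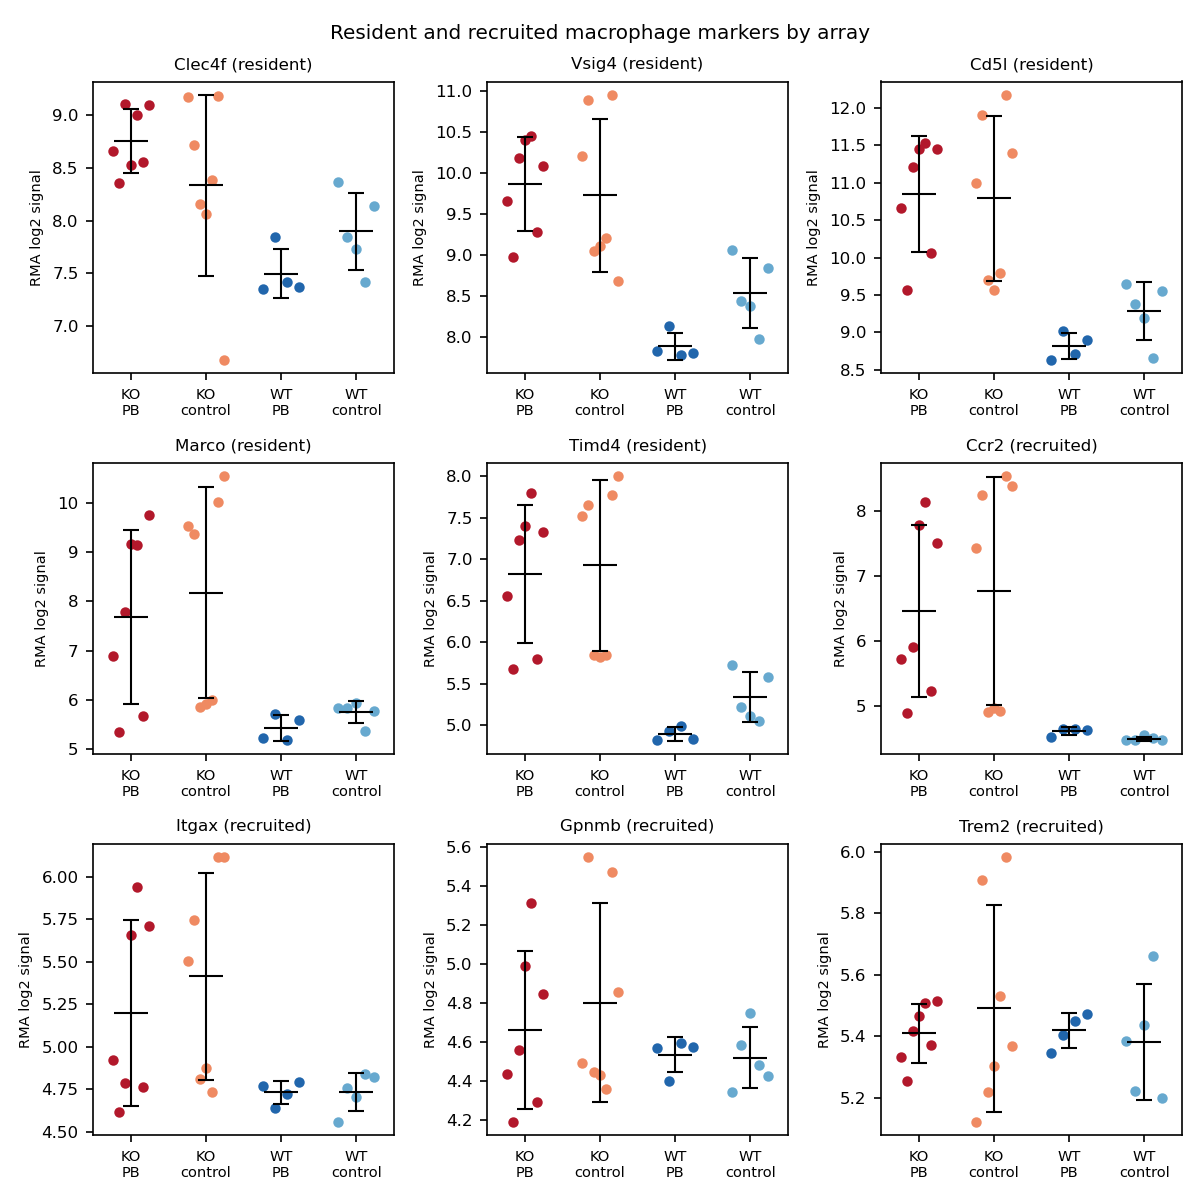
RMA log2 signal (vertical axis, a scale of its own in each panel) of the 5 resident and 4 recruited markers in each array (points) of the 4 groups, with the group mean and SD (bars). Timd4 and Ccr2 separate KO from WT in both diets, Clec4f is low in KO control replicate 7 (6.67), and the groups of Gpnmb and Trem2 overlap.

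The mean of the resident markers was further above the WT control mean than that of the recruited markers in every KO array. In several KO arrays the gap was within the spread of the WT control arrays. As the mean difference from WT control over its genes, the resident group was 1.43 ± 0.82 in KO PB livers, 1.43 ± 1.01 in KO control livers and -0.46 ± 0.16 in WT PB livers (SD, n = 7, 7 and 4), and WT control arrays spread around 0 with an SD of 0.32. The recruited group was 0.65 ± 0.59 in KO PB livers, 0.84 ± 0.75 in KO control livers and 0.04 ± 0.04 in WT PB livers, with an SD of 0.08 in WT control livers. Its 4 genes were unlike, with KO minus WT without PB between 0.11 (Trem2) and 2.28 (Ccr2). For the 5 resident markers it ran between 0.44 (Clec4f) and 2.43 (Marco), so the gap between the means does not hold for Ccr2 alone. Recruited minus resident ran between -1.36 and -0.27 in KO PB arrays and between -1.27 and -0.22 in KO control arrays, against 0.22 to 0.62 in WT PB arrays and -0.46 to 0.56 in WT control arrays. All 14 KO values were below 0 and all 4 WT PB values above 0, while WT control values lay on both sides. KO control replicates 3, 4, 5 and 7 and KO PB replicates 2 and 6 lay within the WT control range. Without KO control replicates 2, 6 and 7, the high arrays, the KO control means were 0.83 for the resident and 0.28 for the recruited group. No test was made of these means over members. Gpnmb lies near the filter level, and Ccr2 lies below it in every WT control array. Trem2 is above that level in all 23 arrays, little above the array medians (5.09 to 5.14). In KO arrays the 2 means largely rose together but not in step. KO PB replicate 3 had a resident mean of 1.74 and a recruited mean of 0.39, against 1.70 and 1.40 in KO control replicate 7. The highest recruited means were in KO control replicates 6 (1.75) and 2 (1.58) and in KO PB replicate 5 (1.45).

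**Figure D3:**
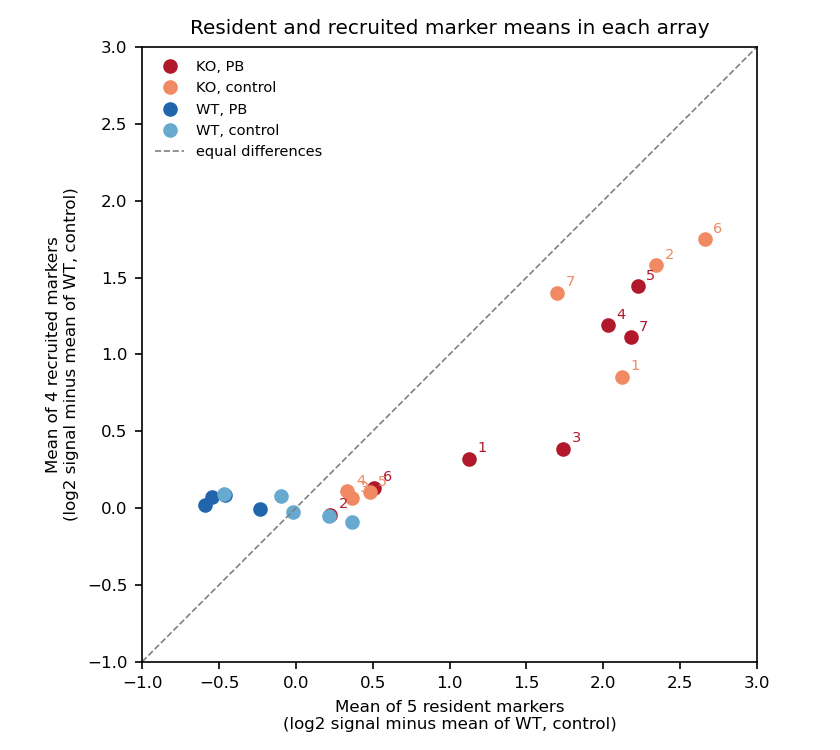
Mean of the 4 recruited markers (vertical axis) against the mean of the 5 resident markers (horizontal axis) in each array, both as log2 difference from the WT control mean, with KO replicate numbers beside the points and a dashed line of equal differences. All KO arrays lie below the line, and KO control replicate 7 lies nearest to it among the arrays with a recruited mean above 0.5.

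KO control replicate 7 differed from the other high arrays in which macrophage genes were high. It had the highest value of its group for 17 of the 38 genes and the lowest for 3. The highest included Cd14 (11.65), Marco (10.55), Msr1 (10.24), Lyz2 (12.37) and Ccl2 (9.47), and the lowest were Clec4f (6.67), Vsig4 (8.68) and Cd163 (5.16). Set against the mean of the other 4 resident markers, Clec4f was 3.65 lower there than in WT control livers on the log2 scale. In the other KO control arrays this difference lay between -1.90 and 0.0046, in KO PB arrays between -1.75 and 0.29, in WT PB arrays between -0.08 and 0.22 and in WT control arrays between -0.09 and 0.13. Neutrophil and macrophage chemokine genes were also at their highest in that array, with list means of 1.31 and 2.12 above WT control, and their part in this pattern was not tested.

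The subunits of complement C1q, the recognition protein of the classical complement pathway that macrophages secrete, were called higher in KO in both comparisons, 3 of 3 in each. Their genes C1qa, C1qb and C1qc lie side by side on chromosome 4. C1qa was between 8.18 and 10.07 (median 9.28) in KO PB livers and 7.21, 7.30, 6.97 and 7.19 in WT PB livers, a difference of 2.05 (SE 0.39, 4.14-fold, adjusted p = 0.000894). Without PB it was between 8.23 and 10.22 (median 9.61) in KO livers and 8.08, 7.62, 7.44, 7.17 and 7.72 in WT livers, a difference of 1.59 (SE 0.36, 3.01-fold, adjusted p = 0.00365). No KO array overlapped a WT array of the same diet for any of the 3 genes. C1qb differed by 2.22 under PB and 1.77 without it, and C1qc by 1.80 and 1.58, with SEs of 0.40 to 0.48.

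Of the 11 general macrophage genes, 10 were called higher in KO in each comparison. Csf1r, the receptor for the growth factor on which macrophages depend, was between 10.07 and 11.87 (median 11.17) in KO PB livers and 8.95, 9.20, 9.03 and 9.16 in WT PB livers, a difference of 1.93 (SE 0.40, 3.82-fold, adjusted p = 0.00194) without overlap. In KO control livers it was between 9.95 and 12.10 (median 11.54), against 9.98, 9.47, 9.29, 9.05 and 9.94 in WT control livers. KO replicate 3 (9.95) lay just below the highest WT array, and the difference was 1.48 (SE 0.38, 2.78-fold, adjusted p = 0.00756). Adgre1, a surface receptor widely used to stain mouse macrophages, was between 7.09 and 8.82 (median 8.32) in KO PB livers and 6.60, 6.85, 6.60 and 6.26 in WT PB livers, with a difference of 1.47 (SE 0.36, 2.78-fold, adjusted p = 0.00668). Without PB the difference was 1.28 (SE 0.34, 2.43-fold, adjusted p = 0.00937), and KO replicates 3 and 5 (7.10 and 7.14) sat beside the highest WT array (7.13). Cd68, a lysosomal membrane protein of macrophages, was between 6.16 and 8.94 (median 7.72) in KO control livers and 5.84, 5.15, 5.06, 5.23 and 5.48 in WT control livers. Every KO array was above every WT array, and the difference was 2.07 (SE 0.46, 4.2-fold, adjusted p = 0.0029).

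Lyz2, Ctss, Lgals3, Mpeg1, Aif1 and Msr1 were called in both comparisons. Lyz2, lysozyme of macrophages and neutrophils, was between 8.70 and 12.37 (median 10.88) in KO control livers and 8.33, 8.06, 8.01, 7.69 and 8.42 in WT control livers, a difference of 2.55 (SE 0.63, 5.86-fold, adjusted p = 0.00593) without overlap. Ctss, the protease cathepsin S, was between 9.51 and 12.02 (median 11.12) in KO PB livers and 8.46, 8.54, 8.34 and 8.41 in WT PB livers, a difference of 2.50 (SE 0.53, 5.64-fold, adjusted p = 0.00218) without overlap. Lgals3, the lectin galectin-3, was between 6.53 and 10.27 (median 8.75) in KO control livers and 6.11, 6.06, 6.04, 5.66 and 6.18 in WT control livers, a difference of 2.34 (SE 0.62, 5.08-fold, adjusted p = 0.00993). Mpeg1, the pore protein perforin-2, Aif1, an actin-binding protein also called Iba1, and Msr1, scavenger receptor A, differed by 1.45, 1.995 and 1.14 without PB and by 1.45, 2.04 and 1.02 under PB, all called. The calls of Lyz2 and Lgals3 under PB were lost without any one of KO PB replicates 4, 5 and 7 or any one WT PB array (highest adjusted p 0.0853 and 0.0755). That of Msr1 was lost without any one of the same 3 KO arrays or WT PB replicate 1, 3 or 4 (up to 0.0825).

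Cd14 and Cd163 were each called in 1 of the comparisons. Cd14, a receptor that helps sense bacterial lipopolysaccharide, was between 6.11 and 11.65 (median 8.40) in KO control livers and 6.16, 5.94, 5.58, 5.74 and 5.54 in WT control livers. Its values in KO covered a 46.4-fold range, the widest of the 38 genes in that group, and the difference was 2.45 (SE 0.83, 5.45-fold, adjusted p = 0.0356). The call was lost without any one of KO control replicates 1, 2, 6 and 7 or any one WT control array, with an adjusted p of up to 0.0739. Under PB the difference was 2.32 (SE 0.89, adjusted p = 0.068) although the groups did not overlap, and without KO PB replicate 2 or KO control replicate 7 the adjusted p was below 0.05 (to 0.0298). With array weights it was 0.0111 under PB and 0.15 without PB, and with only the compared groups 0.0388 and 0.0703. Cd163, the scavenger receptor for haemoglobin bound to haptoglobin, was between 5.16 and 8.17 (median 6.63) in KO control livers and 7.18, 6.52, 5.82, 6.02 and 7.003 in WT control livers, and the difference was 0.16 (SE 0.36, adjusted p = 0.768). Under PB it was between 6.09 and 7.40 (median 6.98) in KO livers and 4.85, 5.88, 5.13 and 5.57 in WT livers, a difference of 1.50 (SE 0.39, 2.83-fold, adjusted p = 0.0096) without overlap. Here the WT PB arrays were low: their mean was 5.36, against 6.51 in WT control livers.

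Fc receptors bind antibody on coated targets, and Fcer1g and Tyrobp are adaptors that pass on signals of surface receptors. Of these 4 genes, 4 were called higher in KO without PB and 3 under PB. Fcer1g was between 7.01 and 9.41 (median 8.33) in KO control livers and 6.72, 6.03, 6.41, 6.19 and 6.52 in WT control livers, a difference of 1.72 (SE 0.39, 3.3-fold, adjusted p = 0.00351). Tyrobp, which serves Trem2, was between 7.58 and 9.97 (median 9.12) in KO PB livers and 7.12, 6.82, 6.93 and 7.003 in WT PB livers. The difference was 1.98 (SE 0.51, 3.95-fold, adjusted p = 0.00979). Both adaptors separated KO from WT without overlap in both diets. The low-affinity receptor Fcgr3 differed by 1.78 without PB and 1.85 under PB, both called, and the call under PB was lost without WT PB replicate 1 or 3 (adjusted p up to 0.0587). The high-affinity receptor Fcgr1 differed by 1.32 (SE 0.43, adjusted p = 0.0305) without PB and 1.16 (SE 0.47, adjusted p = 0.0806) under PB. Its call was lost without any one of KO control replicates 1, 2, 6 and 7 or WT control replicate 2, 3 or 4 (up to 0.081), and without KO PB replicate 2 the adjusted p under PB was 0.0477. With array weights it was 0.0185 under PB and 0.177 without PB, and with only the compared groups 0.0262 and 0.0808.

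Itgb2, the beta chain of the leukocyte integrins, was between 5.84 and 9.24 (median 7.95) in KO control livers and 5.38, 5.11, 4.86, 4.99 and 5.22 in WT control livers, a difference of 2.42 (SE 0.55, 5.35-fold, adjusted p = 0.00354) without overlap. Under PB it differed by 2.11 (SE 0.59, adjusted p = 0.0158). Its partner Itgam was near the bottom of the scale, at 3.39 to 3.99 in KO PB livers, 3.29 to 5.23 in KO control livers, 3.28 to 3.63 in WT PB livers and 3.24 to 3.39 in WT control livers. KO control replicates 6 (4.63) and 7 (5.23) were the 2 arrays in which it was above the filter level. Cybb, the catalytic subunit of the phagocyte NADPH oxidase, had the largest differences of the tested members and did not pass the threshold: 2.70 (SE 0.99, adjusted p = 0.0502) without PB and 2.87 (SE 1.06, adjusted p = 0.0598) under PB. Its KO control values were 9.03, 11.91, 6.89, 7.08, 7.004, 12.03 and 12.03 in replicates 1 to 7, against 6.84, 6.67, 6.83, 6.22 and 7.07 in WT control livers. Replicates 2, 6 and 7 were high, replicate 1 lay between, and replicates 3, 4 and 5 were at the WT level. Its adjusted p crossed 0.05 without any one of KO control replicates 3, 4 and 5 or KO PB replicates 2, 4 and 5 (to 0.0233) in the comparison without PB, and without any one of KO PB replicates 2 and 6 or KO control replicates 6 and 7 (to 0.0333) under PB.

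Of the 3 chemokine and chemokine receptor genes, Ccl6 was called in both comparisons and the other two in neither. Ccl6, a chemokine of rodent macrophages, was between 5.95 and 8.72 (median 7.33) in KO PB livers and 5.12, 5.47, 5.39 and 5.66 in WT PB livers, a difference of 2.18 (SE 0.61, 4.54-fold, adjusted p = 0.0161) without overlap. Without PB it differed by 1.78 (SE 0.57, adjusted p = 0.0276), and this call was lost without any one of KO control replicates 2, 6 and 7 or WT control replicate 3 or 4 (up to 0.0777). Ccl2, the ligand of Ccr2, was 6.73, 5.58, 4.97, 4.99, 5.06, 5.85 and 9.47 in KO control replicates 1 to 7 and 4.82, 5.04, 4.80, 5.08 and 4.81 in WT control livers. Replicate 7 stood far above the rest, and the difference was 1.18 (SE 0.60, adjusted p = 0.151). Cx3cr1, the fractalkine receptor of monocytes, differed by 0.61 (SE 0.23, adjusted p = 0.0547) without PB and 0.60 (SE 0.25, adjusted p = 0.0876) under PB. Its adjusted p was below 0.05 without any one of KO control replicates 3, 4 and 5 or KO PB replicates 2 and 4 (to 0.022) and, under PB, without KO PB replicate 2 or KO control replicate 6 (to 0.0364).

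All 5 genes of leukocytes in general were called higher in KO in both comparisons. Ptprc, the leukocyte surface phosphatase CD45, was between 7.35 and 10.02 (median 8.72) in KO PB livers and 6.49, 6.61, 6.26 and 6.54 in WT PB livers, a difference of 2.41 (SE 0.58, 5.31-fold, adjusted p = 0.00559). In KO control livers it was between 7.64 and 10.79 (median 9.65), against 6.98, 6.68, 6.61, 6.35 and 7.04 in WT control livers, a difference of 2.38 (SE 0.54, 5.22-fold, adjusted p = 0.00326). Neither comparison overlapped. Cd53, a tetraspanin of leukocytes, had the lowest adjusted p of the tested members without PB, with a difference of 2.06 (SE 0.45, 4.18-fold, adjusted p = 0.00244). Laptm5, a lysosomal protein of blood cells, Cd52, a small surface glycoprotein, and Coro1a, which binds actin in leukocytes, differed by 1.84, 2.30 and 1.92 without PB and by 2.14, 2.22 and 1.50 under PB. Laptm5 has 4 tested probe sets, and that used here gave its largest differences. Without PB they ran between -0.18 and 1.84 with 3 called, and under PB between -0.0018 and 2.14 with 2 called. Coro1a was above the filter level in 3 of the WT arrays and so passed the filter of 4 arrays through the KO arrays. Against that level its mean was 1.30 higher in KO PB livers and 1.75 higher in KO control livers. The Cd52 call under PB was lost without WT PB replicate 2 or 4 (up to 0.064). The Coro1a call under PB (0.0484) was lost in 15 of the 23 fits that left out 1 array, those without KO PB replicate 1, 4, 5 or 7, KO control replicate 1 or 2, or any WT array (up to 0.112).

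High and low KO arrays were largely the same ones from gene to gene. KO control replicates 1, 2, 6 and 7 held the 4 highest values of their group for 34 of the 38 genes, and KO PB replicates 4, 5 and 7 held the 3 highest for 32 of 38. The mean over all 38 genes, as difference from WT control, was 0.32 to 2.33 in KO PB arrays (median 1.38) and 0.44 to 2.78 in KO control arrays (median 2.01), against -0.30 to -0.17 in WT PB arrays and -0.32 to 0.28 in WT control arrays. The lowest KO array of each group was thus still above every WT array by this mean. In KO PB arrays between 32 and 38 genes were above the highest WT PB array, and in KO control arrays between 21 and 37 were above the highest WT control array. These counts depend on the WT arrays used. Against the highest of all WT arrays, KO PB replicate 2 had 14 such genes instead of 32, and KO PB replicate 7 had 37. KO control replicate 3 had 21 either way. The share over all genes was not counted for single arrays, so these counts are a description only. Summed over the 38 genes on the linear scale, the signal was 8170 to 35700 in KO PB arrays and 8780 to 48900 in KO control arrays, against 4710 to 5400 in WT PB arrays and 4380 to 7990 in WT control arrays. Several probe sets report the same gene for 15 members. Of 56 tested probe sets of the members, 41 were called higher in KO without PB and 34 under PB, and 0 were called lower. Over all genes, read from 1 probe set each, 14.8% and 11.9% were called higher. The share over all probe sets was not counted, so the counts of probe sets are a description only. Probe sets of 1 gene did not always give the same call. Without PB the 2 tested sets of Fcgr1 differed by 0.035 and 1.32 and those of Marco by 1.25 and 2.43, with 1 called for each gene.

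Phenobarbital itself was followed by no call among these genes. In KO livers, 0 of 37 members were called between PB and control, and 0 had an unadjusted p under 0.05 in limma, where 2.05% of all genes were called. The median difference was -0.17 against 0.0056 over all genes, and 31 of the 37 differences were negative. That direction depends on the arrays kept. Without KO control replicates 2, 6 and 7, the arrays highest in these genes, 36 of the 37 were positive, with a median of 0.61 and 0 called. Leaving out 1 array also moved the median, to 0.02 without KO PB replicate 2, 0.04 without KO control replicate 6 and -0.36 without KO control replicate 3. No direction is read from any of these fits. No member was separated upward, beside 0.636% of all genes. The largest difference was that of Lyz2, between 8.49 and 11.43 (median 9.32) in KO PB livers and between 8.70 and 12.37 (median 10.88) in KO control livers, at -0.88 (SE 0.57, adjusted p = 0.522). For Csf1r the values were 10.07 to 11.87 in KO PB livers and 9.95 to 12.10 in KO control livers, with a difference of -0.002 (95% interval -0.72 to 0.71). On the linear scale this interval runs from 0.609-fold to 1.64-fold, so a change within it was not detectable with these arrays.

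In WT livers, 0 of 37 members were called between PB and control by limma, where 3.85% of all genes were called. The median difference was -0.24 against 0.0079 over all genes, and 30 of the 37 were negative. Cd163 was the 1 member with an unadjusted p under 0.05: 4.85, 5.88, 5.13 and 5.57 in WT PB livers and 7.18, 6.52, 5.82, 6.02 and 7.003 in WT control livers, a difference of -1.15 (SE 0.42, adjusted p = 0.149). Those groups overlapped at 1 array each. The adjusted p was 0.0122 with array weights and 0.0421 with only these 2 groups in the fit. Timd4 was the 1 member with every WT PB array below every WT control array, beside 5.56% of all genes. Its difference was -0.44 (SE 0.48, adjusted p = 0.76). That SE shares 1 spread over all 4 groups and is not the spread of the WT arrays. The SD of Timd4 was 0.08 in WT PB and 0.30 in WT control livers, against 0.83 in KO PB and 1.03 in KO control livers. Over the alternative limma fits the lowest adjusted p in WT was 0.0772 for Timd4 and 0.0648 for Vsig4. All 5 resident markers had a negative difference in WT, with -0.65 for Vsig4 and -0.40 for Clec4f, none called.

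Whether PB acted differently in KO and WT was tested as the interaction of diet and genotype. By limma 0 of 37 members were called, beside 0.875% of all genes. Cd163 was the 1 member with an unadjusted p under 0.05, at 1.33 (SE 0.53, adjusted p = 0.344). The values of Clec4f and Vsig4 were 0.82 (SE 0.44, adjusted p = 0.564) and 0.79 (SE 0.52, adjusted p = 0.696). Of the 37 values 18 were positive.

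**Figure D4:**
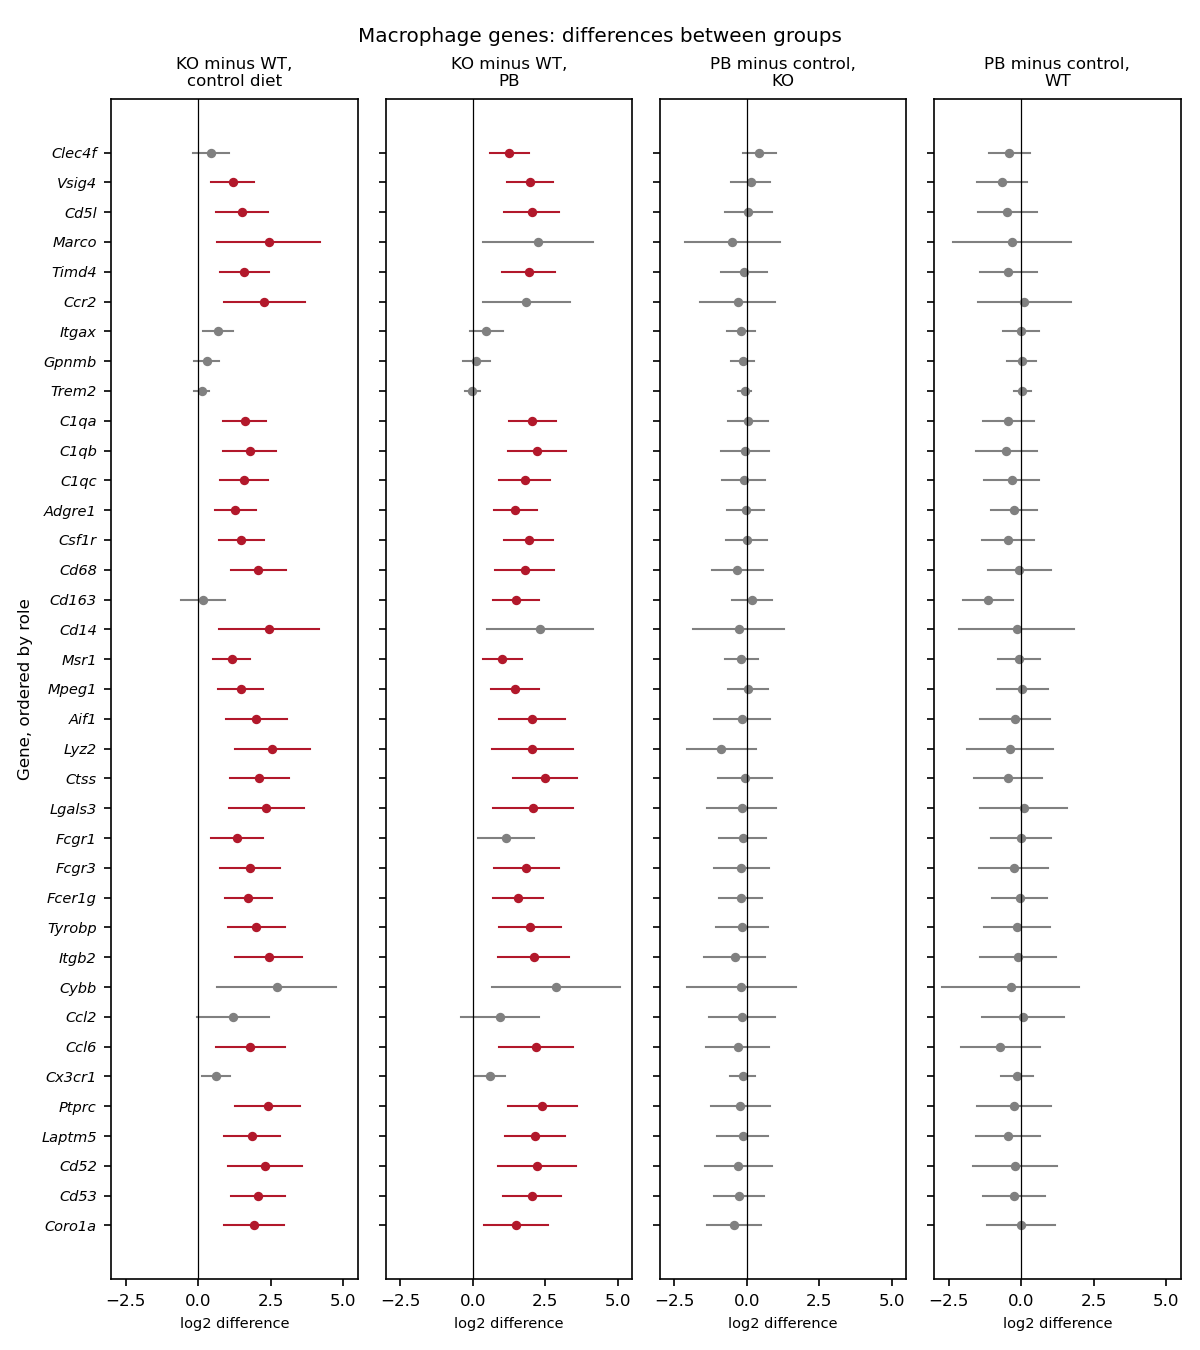
Log2 difference (point) and its 95% interval (line) of the 37 tested genes in the 4 comparisons, with called genes in red and the others in grey. In both KO minus WT panels most points lie between 1 and 3, with 29 called on the control diet and 27 under PB, and in both PB minus control panels every interval but that of Cd163 in WT crosses 0.

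Further Kupffer cell and macrophage genes that are no members were counted from lists. Of 14 other Kupffer cell genes, 11 were called higher in KO than in WT without PB and 7 under PB, and 0 lower. Over all genes tested, 14.8% were called higher in KO without PB and 11.9% under PB. Axl, a receptor for apoptotic cells, differed by 1.69 (SE 0.37, adjusted p = 0.00242) without PB and 1.62 (SE 0.39, adjusted p = 0.0063) under PB, and Fcna, a ficolin of mouse macrophages, by 1.52 (SE 0.15, adjusted p = 3.17e-07) under PB. Of 10 macrophage transcription factors, 5 were called higher in each comparison, among them Irf8, which directs monocyte development, with 1.33 (SE 0.38, adjusted p = 0.0151) without PB and 1.22 (SE 0.41, adjusted p = 0.0397) under PB. Irf5 was the 1 factor called for PB in WT, where it fell by 0.58 on the log2 scale (SE 0.13, adjusted p = 0.0116). Of 14 growth factor and chemokine genes, 6 were called higher without PB and 4 under PB, and of the called genes Cxcl14 differed most, by 2.20 (SE 0.48, adjusted p = 0.0026) and 2.57 (SE 0.52, adjusted p = 0.00139). Csf1, the ligand of Csf1r, was called under PB, by 0.78 (SE 0.25, adjusted p = 0.0349). Ccl9, a macrophage chemokine of the mouse, was the 1 gene of that list called for PB itself, by 0.43 (SE 0.11, adjusted p = 0.0372) in KO and 0.70 (SE 0.14, adjusted p = 0.00337) in WT.

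Lipid-handling and lysosomal genes of macrophages were called in both directions. Of 13 tested, 8 were called higher in KO and 0 lower without PB, and 5 higher and 2 lower under PB. Clec7a, the receptor dectin-1, differed by 2.55 (SE 0.63, adjusted p = 0.00617) without PB and 2.27 (SE 0.68, adjusted p = 0.0216) under PB, and Lpl, lipoprotein lipase, by 1.15 (SE 0.34, adjusted p = 0.0187) and 2.29 (SE 0.37, adjusted p = 0.000156). Fabp5, a fatty acid binding protein that hepatocytes also express, was lower in KO under PB, with a difference of -1.07 (SE 0.26, adjusted p = 0.00632). Of 9 activation genes, 2 were called higher without PB (Cd86 and Tlr4) and 1 under PB (Cd86), with Il10 and Cd80 below the filter level in every array. Beside 14.8% and 11.9% of all genes called higher, these small counts are not read as a result.

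Genes of antigen presentation, stellate cells and endothelium were also called higher in KO. Over all genes, 14.8% were called higher without PB and 11.9% under PB. The part of these and other cell types in the macrophage values was not tested. Of 7 genes of antigen presentation and dendritic cells, 4 were called higher in KO without PB and 3 under PB. H2-Ab1, a class II chain that macrophages also carry, differed by 2.90 (SE 0.73, adjusted p = 0.00721) and 2.69 (SE 0.79, adjusted p = 0.0199). The summed linear signal of the 9 measured genes of that list was 727 to 9370 in KO PB arrays and 837 to 9460 in KO control arrays, against 560 to 695 in WT PB arrays and 549 to 773 in WT control arrays, with Xcr1 and Ccr9 below the filter level in every array. Of 12 stellate cell genes, 9 were called higher without PB and 6 under PB, with sums of 5000 to 10100 in KO PB, 5980 to 18000 in KO control, 2690 to 3290 in WT PB and 2630 to 3390 in WT control arrays. Of 10 endothelial genes, 9 and 7 were called higher, with sums of 2690 to 3320 in KO PB, 2270 to 4200 in KO control, 1860 to 2150 in WT PB and 1830 to 2260 in WT control arrays. Lyve1, an endothelial receptor that some macrophages also carry, differed by 2.44 (SE 0.44, adjusted p = 0.000508) without PB.

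For lymphocytes, neutrophils and cholangiocytes the lists were small and the calls few. Beside 14.8% of all genes called higher without PB and 11.9% under PB, their counts are not read as a result. Of 10 lymphocyte genes, 3 were called higher and 1 lower without PB, and 1 higher and 1 lower under PB. The sums of the lymphocyte list were 582 to 877 in KO PB, 744 to 936 in KO control, 1630 to 2010 in WT PB and 572 to 1450 in WT control arrays. Ighm alone differed by -2.11 (SE 0.29, adjusted p = 3.12e-05) under PB. Of 7 neutrophil genes, 2 were called higher without PB (S100a8 and S100a9) and 1 under PB (S100a9). Their sums were 345 to 552 in KO PB, 396 to 1710 in KO control, 290 to 334 in WT PB and 323 to 335 in WT control arrays, with Mpo and Cxcr2 below the filter level in every array. Of 5 cholangiocyte genes, 2 were called higher without PB and 1 under PB, with sums of 233 to 342 in KO PB, 230 to 382 in KO control, 191 to 215 in WT PB and 199 to 245 in WT control arrays and Krt7 and Cftr below the filter level throughout. Hepatocyte genes were high and even, with 0 of 6 called without PB and 1 of 6 under PB, where fibrinogen gene Fgb differed by 0.19 (SE 0.05, adjusted p = 0.00692). Of the red cell list Alas2 alone was tested and was not called, and of 3 tested genes of other tissues 0 were called.

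**Figure D5:**
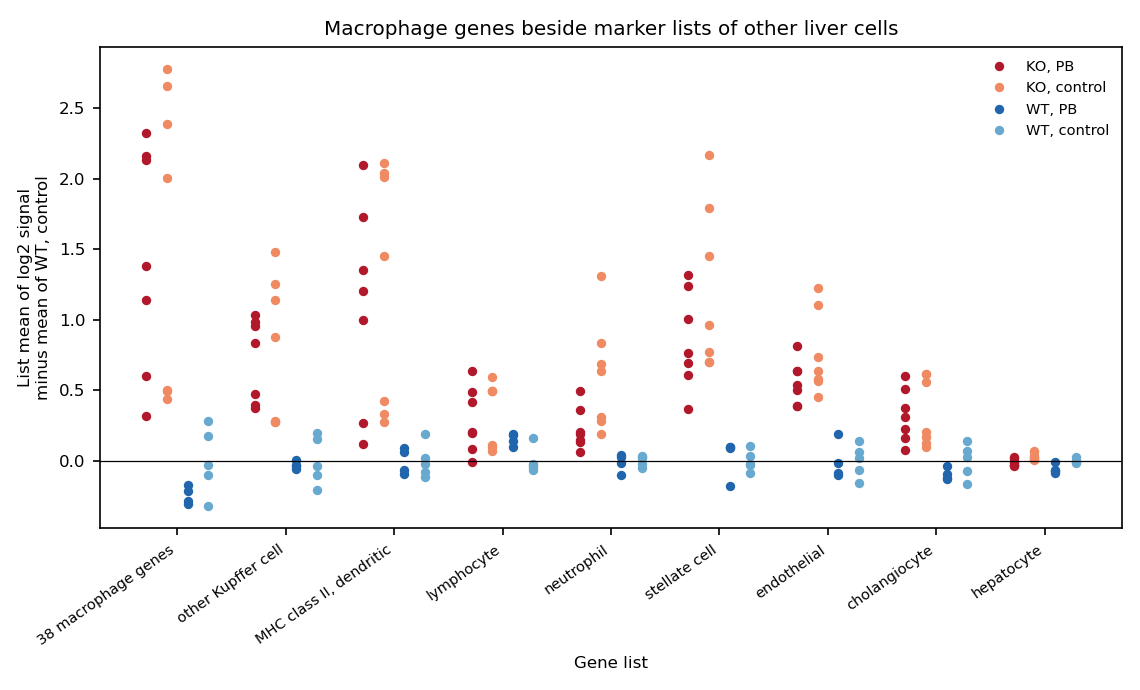
Mean over each gene list (horizontal axis) of the log2 difference from WT control in each array (points, by group). The 38 macrophage genes reach 2.78 in KO control and 2.33 in KO PB arrays and the hepatocyte genes stay between -0.09 and 0.07 in all arrays.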

How the data were processed

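The deposited values are log2 signals of 45037 probe sets on 23 arrays of mouse liver RNA, which the authors made with RMA in the affy package, per the submitters' processing notes. Versions are not given in the sources used here. RMA shares its quantile step across arrays, so a level is relative to the other arrays. Low signals are compressed. The platform's annotation gave 34945 probe sets 1 gene, 932 several and 9160 none. Symbols were updated through Entrez identifiers for 34741 of the single-gene probe sets, and 204 kept their old symbol. Each of 18193 genes was read from the single-gene probe set whose mean over the arrays was highest. Genes above the 40th percentile of an array in at least 4 arrays (13827) were tested.

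The fit in limma 3.58.1 (R 4.3.3; lmFit and eBayes) held the 4 group means and all 23 arrays. A gene is called where the Benjamini-Hochberg adjusted p over all tested genes is under 0.05, and "without overlap" means that every array of one group is above every array of the other. Comparisons were KO with WT in each diet, PB with control in each genotype, and their interaction. Those of KO PB with KO control and of KO control with WT control share the KO control arrays, and likewise for the other groups. Python 3.11.15 with pandas 2.3.3, numpy 2.4.6 and matplotlib 3.10.9 was used for the rest, and the fit was tested on simulated data with 200 changed genes. The number of arrays limits the precision.

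The members and gene lists were chosen with earlier results of these data known. Members were named by value where called in any comparison or where they are resident or recruited markers, C1q, Adgre1, Csf1r or Cd68, and the other members are given as exceptions. Of each other list up to 3 called genes with the largest difference were eligible, with Ctnnb1. Genes of the lists with no probe set of their own were not analysed here. The alternatives were no filter and a 60th percentile filter, quantile normalization, median centring, other probe set choices, trended and robust variance, array weights, a replicate block, only the compared groups, leaving out each array, and leaving out KO control replicates 2, 6 and 7. RNA quality and array batch were not given in the sources used here.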

Additional observations from a re-analysis of the deposited data

Results flagged for a closer look

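Of 164 gene and group combinations tested for a single array far from the rest (Dixon's gap over range, at the 95% level), 6 stood out, where chance alone flags about 1 in 20. In KO control livers, Ccl2 in replicate 7 had a log2 signal of 9.47, with the next array at 6.73. In WT PB livers, replicate 2 was the highest for Clec4f (7.84, next 7.41) and for Vsig4 (8.12, next 7.83) and the lowest for Gpnmb (4.40, next 4.57). In WT control livers, replicate 4 was the lowest for Marco (5.37, next 5.77) and for Lgals3 (5.66, next 6.04).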

How the results depend on the processing

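Each result was recomputed under up to 34 alternatives, and no called difference changed sign. Calls were less stable than signs. Of the 29 members called between KO control and WT control, 2 kept the call in every alternative. Of the 27 called between KO PB and WT PB, 14 did. Leaving out KO control replicates 2, 6 and 7 left 2 members called between KO control and WT control (29 with all arrays). These are the arrays highest in the same genes, so this is no independent check. The counts over all genes were then 786 for PB in KO (284 with all arrays), 810 for PB in WT (532), 1535 for KO control against WT control (3453) and 273 for the interaction (121). With array weights they were 461 for PB in KO, 1504 for PB in WT, 4574 for KO PB against WT PB (2772) and 323 for the interaction, and 1 member (Cd163) was called for PB in WT. Members called were then 21 for KO control against WT control and 33 for KO PB against WT PB (27 in the fit as reported). The 8 lost without PB were Cd5l, Marco, Ccr2, Cd14, Lgals3, Fcgr1, Fcgr3 and Ccl6. With only the compared groups the counts over all genes were 100 for PB in KO, 929 for PB in WT, again with 1 member, and 2074 for KO control against WT control. Members called in the KO comparisons were then 24 and 32.

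Same-numbered arrays were not paired by the labels, and 5 of 29 such pairs had deviations correlated over 0.1 (range -0.695 to 0.628). With the replicate number as a block, 19 members were called between KO control and WT control and 14 between KO PB and WT PB, and 1967 and 1606 of all genes. The cause of none of these shifts was tested.

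Leaving out 1 array at a time gave 24 to 32 called members for KO control against WT control, 22 to 33 for KO PB against WT PB and 0 for each of the other comparisons. Of the 29 and 27 called members, 24 and 21 were called in all 23 such fits. Over all genes the counts were 157 (without KO PB replicate 1) to 408 for PB in KO, 314 (without WT PB replicate 3, and 350 without replicate 1) to 664 for PB in WT, and 2667 to 3903 for KO control against WT control. They were 1796 (without WT PB replicate 3, and 1846 without replicate 4) to 3287 for KO PB against WT PB, and 63 to 146 for the interaction (63, 75 and 78 without WT PB replicates 3, 1 and 4). Quantile normalization made 67.5% of the calls for PB in KO higher, against 57.0% as deposited. For KO control against WT control it made 50.2% higher, against 59.4%, and for KO PB against WT PB 52.6%, against 59.5%. Members called in these 2 comparisons were then 30 and 27. For single genes, 5700 recomputed values kept their call and direction or moved little, 140 lost the call, 48 gained it and 340 uncalled ones changed sign or moved. The smallest group held 4 arrays. Signal near background, as for Gpnmb, Itgam and, in WT control livers, Ccr2, limits what a difference can show. Trem2 was low as well but above the filter level in all 23 arrays.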

Other observations

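Erythroid genes and genes of other tissues were read as well. The summed linear signal of the 3 red cell genes with a probe set was 476 to 962 in KO PB arrays, 349 to 907 in KO control arrays, 985 to 1140 in WT PB arrays and 709 to 808 in WT control arrays, with Hba-a1 and Slc4a1 below the filter level in every array. The 5 genes of other tissues summed to 162 to 186 in KO PB, 150 to 182 in KO control, 164 to 183 in WT PB and 163 to 188 in WT control arrays. Ighm, the heavy chain of IgM, averaged 10.58 in WT PB livers and 8.89 in WT control livers on the log2 scale, a difference of 1.69 (SE 0.32, adjusted p = 0.00248 by limma). Its interaction of diet and genotype was -1.99 (SE 0.40, adjusted p = 0.0163). Acta2, smooth muscle actin of activated stellate cells, averaged 6.61 in KO PB livers and 7.62 in KO control livers, a difference of -1.01 (SE 0.23, adjusted p = 0.022).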
